A study of Zea mays with 64 samples.

Results

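Leaf-only insertions private to a plant were Mu transposon sites counted in the leaf of 1 maize seedling, in no endosperm and in no father. A site was included when its end and start lay 8 bp apart, it had at least 10 counts in exactly 1 leaf library, 0 counts in every endosperm and father library, and 0 to 2 counts in every other leaf library. The rule was met by 10801 of the 1091491 sites with that spacing, which is 0.99%, out of 1091553 sites in all. They are candidate somatic sectors, meaning patches of leaf cells that descend from a cell in which an element inserted during growth. The sites were thus chosen by their counts in leaf, endosperm and father libraries, and these counts, the levels made from them and the contrast of leaf with endosperm are given as a description without a test. Tests were made on the family of the plant, its other insertions and the position of the sites, which the rule did not use. Depth was tested as well, but a minimum of 10 counts ties the number of sites to depth.

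The sites were profiled in maize of the inbred line W22 by MuSeq2, a PCR method that amplifies the genomic DNA beside Mu ends. A chip of the kernel gave the endosperm library and the seedling grown from that kernel gave the leaf library, harvested 10 to 13 days after sowing. The 64 libraries were 30 leaf libraries, the 30 endosperm libraries of the same plants and 1 endosperm library of each of the 4 fathers. A column kit was used for leaf DNA and a modified CTAB extraction for endosperm DNA, and the effects of tissue and of extraction cannot be told apart.

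All plants came from pollen of a Mu-active W22 father on ears of a Mu-inactive W22 line. Family NE71 had 8 plants and the father ND66-2, NE72 had 7 plants and the father ND67-51, NE73 had 7 plants and the father ND67-40, and NE74 had 8 plants and the father ND67-35. Each plant had 1 library per tissue, so the spread between plants of a family includes the spread between libraries. Leaf totals ran from 25037 counts in plant 8 of NE72 to 687094 in plant 3 of NE72, against 5457 to 105320 in the endosperm of the plants and 273277 to 610687 in the fathers.

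Mu elements move when the autonomous element MuDR supplies its transposase. In somatic tissue Mu activity is known to come late in development, which leaves many small sectors. In the germ line new copies are inserted and passed to the progeny. Insertion duplicates 9 bp of the target, and a site counted from both sides of the element spans those 9 bp, which corresponds to the 8 bp between the deposited start and end. Of 10808 sites that met the count conditions, 7 had another spacing and were left out. Of the 10801, 10798 lay on the 10 chromosomes and 3 on scaffolds.

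The leaf-only sites had low counts. Their median was 16 counts, with quartiles of 12 and 26, and the highest had 1134. In the other leaves 7923 of them (73.4%) had 0 counts, and the largest sum over all other leaves was 14. None was among the 1058 insertions of the authors' deposited table of transmitted insertions, which calls each insertion 0 or 1 in every plant, in the fathers and in the Mu-inactive parent.

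To compare plants of unequal depth, each site's leaf count was divided by the median leaf count of the plant's paternal sites and given as a percentage. Paternal sites were those called for both the plant and its father in the authors' deposited table, not called for the Mu-inactive parent, and not shared by all 30 plants. A paternal site comes through the pollen, is heterozygous and is expected in every leaf cell. A level below that of such a site can reflect fewer cells with the insertion or fewer counts per copy, and these cannot be told apart in a bulk leaf. New germinal sites, called for the plant in the authors' deposited table and for no parent, served as a second yardstick. Levels and positions of new germinal sites were taken from the 891 of 912 such calls whose end and start lay 8 bp apart. The levels of paternal sites came from all 884 calls and their positions from the 858 with that spacing.

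The leaf-only sites lay far below both yardsticks. Their level had a median of 0.814%, with a 5th percentile of 0.374% and a 95th of 3.35%. The 891 new germinal calls had a median of 96.2%, with a 5th percentile of 27.1% and a 95th of 143.1%. The 884 paternal calls had a median of 100%, with a 5th percentile of 38.7% and a 95th of 139.6%. The highest leaf-only site reached 64.5%, and 0 of the 10801 reached 100%. The lowest new germinal call stood at 2.40% and the lowest paternal call at 17.5%.

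The ranges overlapped at the top of the leaf-only levels. In 14 plants, 61 leaf-only sites exceeded the plant's lowest new germinal site, and 18 of these were in plant 3 of NE73, where that lowest site stood at 2.40%. Only 12 leaf-only sites exceeded the lowest paternal site of their plant. In all, 6783 leaf-only sites (62.8%) lay below 1% and 66 (0.611%) at 10% or more. Those at 25% or more were 14, spread over 12 plants, and 2 exceeded 50%.

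**Figure D1:**
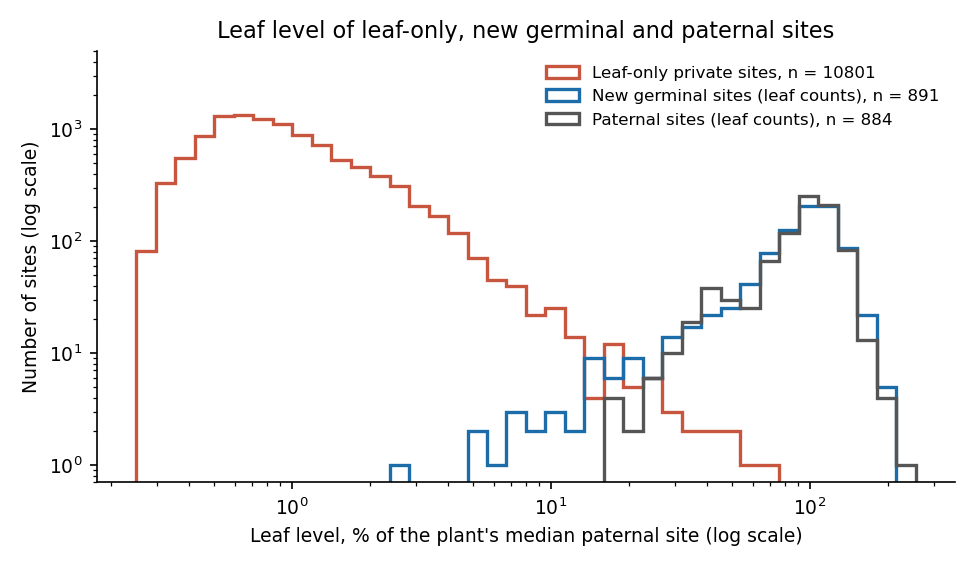
Distribution of leaf levels, as a percentage of the plant's median paternal site, for leaf-only sites, new germinal sites and paternal sites. Both axes are on a log scale. The leaf-only sites peak below 1% (median 0.814%), while the new germinal sites (median 96.2%) and the paternal sites (median 100%) peak near 100%.

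The spectrum fell steeply with level. Counted over doublings in the 25 plants whose 10-count minimum lay below 1%, there were 2536 sites between 1 and 2%, 955 between 2 and 4%, 256 between 4 and 8%, 53 between 8 and 16%, 25 between 16 and 32%, 5 between 32 and 64%, and 1 above 64%. Each doubling held fewer sites than the one below it, by a factor of 2.66 at the first step, 3.73 at the second, 4.83 at the third, and between 2.12 and 5 at the steps after. The upper steps rest on few sites. The first step was alike in the 4 families, with factors of 2.53 in NE72, 2.79 in NE74, 2.64 in NE71 and 2.90 in NE73, and the second step had factors between 3.18 and 4.10. The heights differed: between 1 and 2% a plant had on average 171.5 sites in NE72, 104 in NE74, 72.1 in NE71 and 42 in NE73. The left end of the spectrum is set by the minimum: 10 counts were worth 0.273% of a paternal site in the plant where they weighed least and 9.71% in plant 8 of NE72, with a median of 0.544% over the 30 plants.

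**Figure D2:**
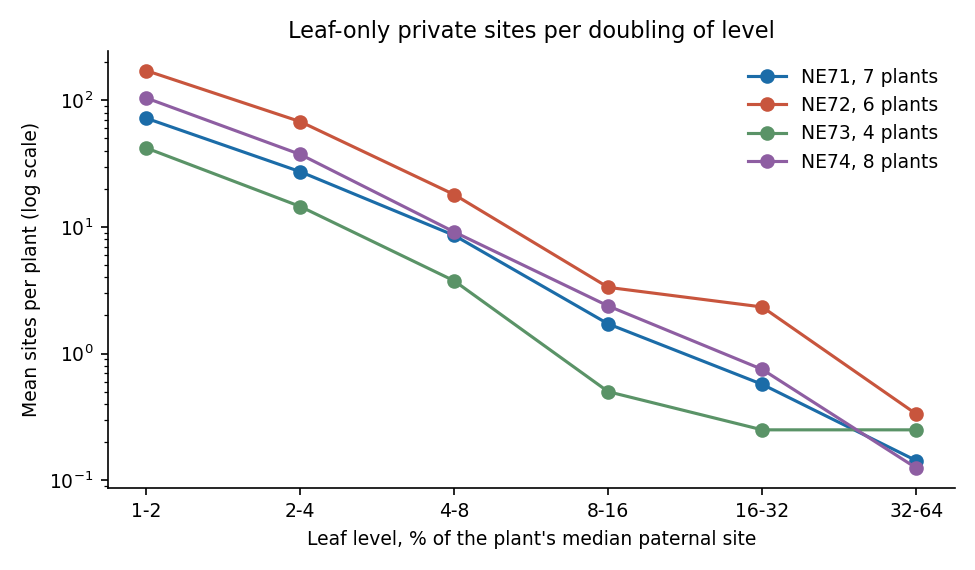
Mean number of leaf-only sites per plant (log axis) for each doubling of the leaf level, with 1 line per family over the 25 plants whose minimum lay below 1%. All 4 lines fall steeply at the first 3 doublings, and NE72 starts highest, with 171.5 sites per plant at 1 to 2%, against 42 in NE73.

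Added together, the leaf-only sites of a plant carried as many counts as a few paternal sites. The summed level ranged from 0.249 paternal-site equivalents in plant 9 of NE73 to 11.8, with a mean of 4.57 ± 3.22 (SD, n = 30 plants). They took 0.199% to 5.09% of all counts of their leaf library, with a mean of 2.81 ± 1.40% (SD, n = 30).

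At the threshold the sites formed a continuum. Sites with exactly 10 counts numbered 1280, with a median level of 0.482%, while 1628 sites with exactly 9 counts met all other conditions, with a median level of 0.434%. Sites that had a count of 2 as their highest in another leaf numbered 837, against 344 left out because that highest count was 3. The sites that the endosperm condition left out were of unlike level. The leaf and father conditions were met by 12135 sites, of which 1334 had endosperm counts and were left out. In 726 of these the counts included the plant's own endosperm, and their median leaf level was 88.8%. In the other 608, counted only in the endosperm of other plants, the median leaf level was 0.833%, close to the 0.814% of the leaf-only sites. Sites left out for a summed endosperm count of 1 numbered 542, and the 55 of these counted in the plant's own endosperm had a median leaf level of 0.771%.

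Absence from the endosperm carried different weight at different depths. If a site had the same level in the endosperm, 3 counts would correspond to 0.347% to 12.5% of the endosperm's median paternal site, depending on the plant. Of the 10801 leaf-only sites, 2586 (23.9%) stood at or above that value for their own plant. This held for all sites in 7 plants and for 0 of the 330 in plant 5 of NE74. It held for 63 of the 66 sites at 10% or more and for all 14 at 25% or more. For the remaining sites an equal level would give fewer than 3 endosperm counts. A single count would have left them out, but 0 counts can arise by sampling, so absence there carries less weight. Floors and intervals given here cover counting error only, because amplified products counted without known molecular identifiers are not independent.

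The 10 sites of highest level are described singly. Intervals are 95% Wilson intervals of the leaf counts per 1000000 (CPM), the start is the lower deposited coordinate, and the genome build is not given in the sources used here, so no gene is named. The highest was chr5:173470672-173470680 in plant 4 of NE72, with 1006 of 312329 leaf counts, or 3221 CPM (3028 to 3426), at 64.5% of a paternal site. It had 0 counts in any other library, and a floor of 3 counts in the 12521 endosperm counts allowed up to 4.76%. A leaf-only site of plant 3 of NE74, with 22 counts, lay 54 bp away.

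The second was chr7:119610042-119610050 in plant 8 of NE73, with 742 counts, 5343 CPM (4973 to 5740) and a level of 55.4%. Its endosperm floor was 0.472%, far lower than that of the site before it. The third, chr4:219426252-219426260 in plant 5 of NE71, had 1134 counts, 4517 CPM (4262 to 4787) and a level of 49.8%. It also had 3 counts spread over 3 other leaves, and its endosperm floor was 1.27%. It lay 68 bp from chr4:219426320-219426328, a new germinal insertion of plant 1 of NE74 in the authors' deposited table.

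Plant 8 of NE72 held 2 of the 10, in the shallowest leaf library. The site chr10:136785741-136785749 had 50 of 25037 counts, 1997 CPM (1515 to 2632) and a level of 48.5%, and chr2:195590234-195590242 had 42 counts, 1678 CPM (1241 to 2267) and a level of 40.8%. Their intervals are the widest of the 10, and the endosperm floor of that plant was 12.5%.

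The highest site of family NE74 was chr4:162908792-162908800 in plant 2, with 920 counts, 2316 CPM (2171 to 2471) and a level of 43.9%. Family NE72 contributed a further 3 sites. These were chr5:138034569-138034577 in plant 1 with 698 counts, 1850 CPM (1717 to 1992) and 37.9%, chr6:122126836-122126844 in plant 9 with 699 counts, 1883 CPM (1749 to 2028) and 36.0%, and chr9:25505757-25505765 in plant 3 with 921 counts, 1340 CPM (1257 to 1430) and 31.4%. The other site of family NE71 was chr4:109560020-109560028 in plant 6, with 325 counts, 2516 CPM (2257 to 2804) and a level of 31.4%. A leaf-only site of plant 3 of NE74 with 35 counts lay 618 bp from it. Of the 10 sites, 6 were in NE72, 2 in NE71, 1 in NE73 and 1 in NE74. Of all 10801 leaf-only sites, NE72 held 4597, NE71 1666, NE73 717 and NE74 3821.

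The number of leaf-only sites differed widely between plants and between families. It ranged from 6 in plant 9 of NE73 to 1280 in plant 3 of NE72, with a mean of 360 ± 309 (SD, n = 30) and a median of 272.5. The lowest, median and highest plants had 101, 179.5 and 373 sites in NE71, 7, 658 and 1280 in NE72, 6, 104 and 254 in NE73, and 154, 485.5 and 748 in NE74. Plant 8 of NE72, with 7 sites, stood apart from its siblings and had the shallowest leaf. Family totals were 4597 sites in NE72, 3821 in NE74, 1666 in NE71 and 717 in NE73.

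The family means were 657 ± 402 (SD, n = 7) in NE72, 478 ± 211 (SD, n = 8) in NE74, 208 ± 101 (SD, n = 8) in NE71 and 102 ± 86.9 (SD, n = 7) in NE73. They differed by more than the spread between plants (F = 8.53, permutation of family labels, p = 0.00048). In exact two-sided permutation tests of the 6 pairs with Benjamini-Hochberg adjustment, NE72 exceeded NE71 by 448 sites (adjusted p = 0.0107) and NE74 exceeded NE71 by 269 (adjusted p = 0.0107). NE73 differed from NE72 by -554 (exact permutation, adjusted p = 0.0107), and NE74 had 375 more than NE73 (exact permutation, adjusted p = 0.00746). The differences of -106 between NE73 and NE71 (exact permutation, adjusted p = 0.0634) and of -179 between NE74 and NE72 (exact permutation, adjusted p = 0.295) did not pass the threshold of 0.05.

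Depth moved with these numbers. Across the 30 plants the number of leaf-only sites followed the leaf total with Pearson's r = 0.943 (permutation p = 1e-05, the smallest possible, adjusted p = 3e-05) and Spearman's rho = 0.953 (permutation p = 1e-05, adjusted p = 3e-05). Without the 2 plants farthest from the median depth r was 0.921. Within families r was 0.987 in NE72, 0.906 in NE74, 0.696 in NE71 and 0.987 in NE73. The mean leaf total was 380823 counts in NE72, 369667 in NE74, 177539 in NE71 and 143402 in NE73, so the families with more leaf-only sites were also the more deeply sequenced ones.

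The order of the families depended on the measure. Per 100000 leaf counts the means were 150 ± 57.4 in NE72, 125 ± 32.1 in NE74, 117 ± 30.8 in NE71 and 62.2 ± 25.2 in NE73 (SD), and the families differed (F = 6.68, permutation p = 0.00226). At a minimum of 399 CPM, the value of 10 counts in the shallowest leaf, 161 sites were left. Their means were 5.86 ± 1.95 in NE72, 4.25 ± 3.11 in NE74, 8 ± 4 in NE71 and 3.14 ± 2.73 in NE73 (SD, F = 3.57, permutation p = 0.028), so that NE71 came first. A given CPM was a different share of a paternal site in each family, since the median paternal site had on average 4689 CPM in NE72, 6090 in NE74, 8505 in NE71 and 8949 in NE73.

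At a fixed level of 4% of a paternal site or more, in the 29 plants where 10 counts lay below it, NE72 again had the most sites. That level was chosen after the data were seen, and its values are a description. The means were 24.2 ± 6.49 in NE72 (SD, n = 6), 12.4 ± 6.61 in NE74 (SD, n = 8), 11.5 ± 4.90 in NE71 (SD, n = 8) and 4.29 ± 2.63 in NE73 (SD, n = 7), the means of NE74 and NE71 being closer than the spread between plants. NE73 had the lowest mean on each of these 4 measures. Depth still moved with the number at this level (r = 0.646 over 29 plants, permutation, adjusted p = 0.00027), and its part in the difference of the family means was not tested.

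**Figure D3:**
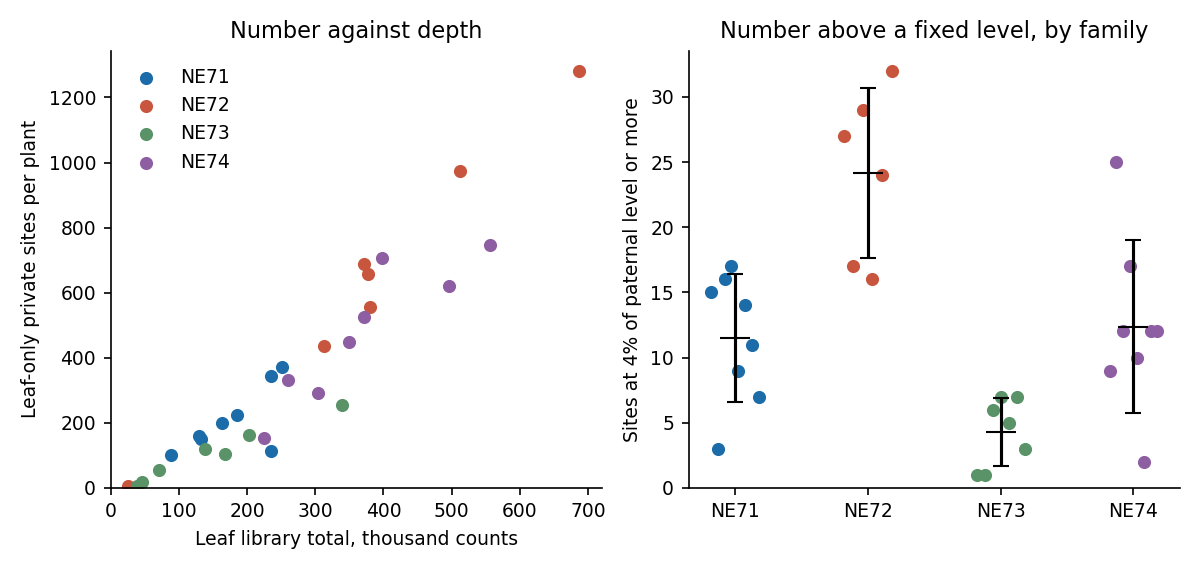
Leaf-only sites per plant against the leaf total, by family (left), and sites at 4% or more of a paternal site per plant, by family, with points for plants and the mean ± SD (right). The number rises with depth (r = 0.943), and at the fixed level NE72 has the highest mean (24.2) and NE73 the lowest (4.29).

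The number of leaf-only sites was also set against the other insertions of the plant. Against the number of paternal sites carried, r was 0.360 (permutation p = 0.0499, adjusted p = 0.0499) and rho 0.413 (permutation p = 0.0236, adjusted p = 0.0236) over 30 plants. Without the 2 farthest plants r was 0.299, and within families it was 0.280 in NE72, -0.479 in NE74, 0.133 in NE71 and -0.265 in NE73, so the relation did not hold within families. It also lost its call under most of the other settings tried and turned to -0.337 at the minimum of 399 CPM (permutation, adjusted p = 0.208).

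Against the number of new germinal sites r was 0.671 (permutation p = 6e-05, adjusted p = 9e-05) and rho 0.630 (permutation p = 0.00019, adjusted p = 0.000285) over 30 plants. Without the 2 farthest plants r was 0.811. The permutations took siblings as independent plants, so these p-values do not separate a relation between plants from a difference between families. Within families r was -0.110 in NE72, 0.456 in NE74, -0.273 in NE71 and 0.469 in NE73. The sign of the relation within families was mixed, and the number of new germinal calls, of any spacing, averaged 55.3 ± 6.40 per plant in NE72, 36.4 ± 8.85 in NE74, 19.1 ± 7.77 in NE71 and 11.6 ± 5.77 in NE73 (SD). At the minimum of 399 CPM neither the relation with new germinal sites (r = 0.0760, permutation, adjusted p = 0.767) nor that with depth (r = 0.0567, permutation, adjusted p = 0.767) passed the threshold. At the level of 4% or more, chosen after the data were seen, r with new germinal sites was 0.733 over 29 plants (permutation, adjusted p = 9e-05).

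A mirrored rule for the endosperm found few sites. With at least 10 counts in exactly 1 endosperm of a plant, 0 in all leaves and fathers, and 0 to 2 in every other endosperm, 57 sites were found, of which 14 were in plant 7 of NE74 and 11 in plant 1 of NE71. Leaf-only sites averaged 360 per plant and endosperm-only sites 1.90, a difference of 358 ± 309 (SD, n = 30), positive in 30 of 30 plants. The counts of both tissues entered the rules, so no test is given. The leaf was the deeper library in 28 of 30 plants. With the deeper library of each plant thinned to the depth of the other, leaf-only sites averaged 24.7 and endosperm-only sites 2.43 per plant, a difference of 22.3 ± 23.6 (SD, n = 30), positive in 26 plants and negative in 0. With at least 10 counts and 399 CPM in either tissue, where 10 counts are worth more than 399 CPM in the shallower endosperm libraries, leaf-only sites averaged 5.37 and endosperm-only sites 0.667 per plant, a difference of 4.70, positive in 26 plants and negative in 1.

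Leaf-only sites were spread over all 10 chromosomes with an excess towards the ends. Their density ran from 4.39 per Mb on chromosome 9 to 5.89 per Mb on chromosome 5. Chromosome 1 held 1820 sites, 16.9% of those on chromosomes, against 14.7% of the summed length. Chromosome length was taken as the largest coordinate in the count table. In bins of 5% of the chromosome the densest were the last bin of chromosome 5 with 17.5 sites per Mb, the last of chromosome 6 with 17.1 and the first of chromosome 2 with 16.5. The sparsest lay inside the chromosomes, at 25 to 30% of chromosome 8 with 0.439 per Mb and at 35 to 40% of chromosome 7 with 0.441 per Mb.

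**Figure D4:**
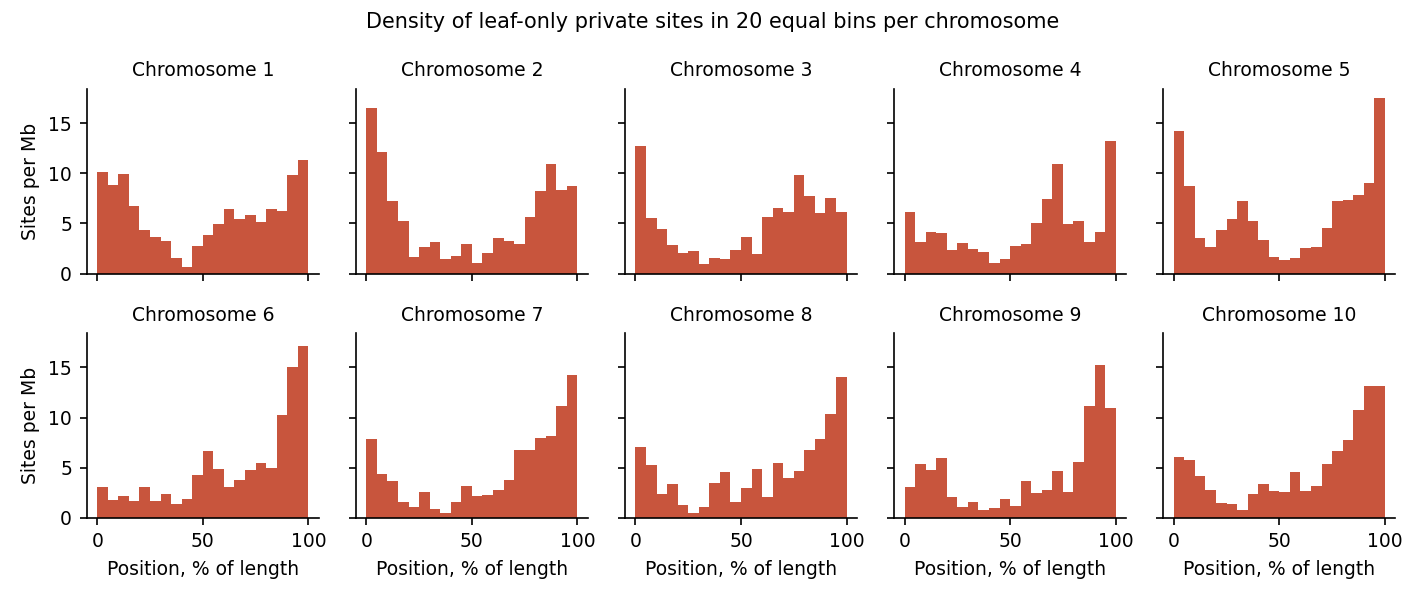
Density of leaf-only sites per Mb in bins of 5% of chromosome length, for each of the 10 chromosomes. The densest bins are at chromosome ends, with 17.5 per Mb in the last bin of chromosome 5, and the sparsest are interior, with 0.439 per Mb on chromosome 8.

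To show where weaker signals of the same libraries lay, low-count leaf sites were taken as the 691459 sites with 1 to 9 counts in 1 leaf and 0 in the other 63 libraries. The outermost 20% at both ends together held 60.3% of the leaf-only sites, 62.9% of the new germinal sites, 57.8% of the paternal sites and 59.3% of the low-count leaf sites. The middle 20% held 10.3% of the leaf-only, 9.99% of the new germinal, 13.7% of the paternal and 10.3% of the low-count sites. The last 10% of the chromosomes held 21.8% of the leaf-only sites and the first 10% held 15.4%. Of the 66 leaf-only sites at 10% or more, 36 (54.5%) lay in the outermost 20%.

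Position was compared within plants as the median distance to the nearer chromosome end, in percent of chromosome length. Leaf-only sites lay at 14.9 ± 1.32% and new germinal sites at 12.7 ± 4.16% (SD, n = 30 plants), a difference of 2.21 ± 4.32 percentage points, with leaf-only sites farther inward in 22 plants and nearer the end in 8 (sign-flip permutation, adjusted p = 0.0128). That call was lost without family NE71 (1.96 points, permutation, adjusted p = 0.0572), without NE73 (1.58 points, permutation, adjusted p = 0.0680) and at the minimum of 399 CPM (1.26 points, permutation, adjusted p = 0.508). Paternal sites lay at 20.2 ± 7.88%, and leaf-only sites differed from them by -5.28 ± 8.20 points, nearer the end in 23 plants and farther inward in 7 (sign-flip permutation, adjusted p = 0.00246). Siblings share the sites of 1 father, so this comparison rests on 4 sets of paternal sites, and without NE73 it did not pass the threshold (-4.68 points, permutation, adjusted p = 0.0599).

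By family the difference from paternal sites was 2.30 points in NE72, -4.72 in NE74, -10.7 in NE71 and -7.27 in NE73, and it differed between families (F = 4.54, permutation, adjusted p = 0.0271). In NE72 the leaf-only sites were thus farther inward than the paternal sites, in 6 of 7 plants (exact sign-flip permutation, p = 0.0312). In NE73 (exact p = 0.0156) and NE74 (exact p = 0.00781) they were nearer the end in every plant, and in NE71 in 7 of 8 plants (exact p = 0.0547). Siblings draw their paternal sites from 1 father, so these p-values and the F test take overlapping sets as replicates. They measure the spread between siblings and not between sets of paternal sites. Low-count leaf sites lay at 15.5 ± 0.173%, and leaf-only sites were nearer the end by a mean of 0.63 points (difference of -0.634 ± 1.37, SD, n = 30; 24 plants nearer, 6 farther; sign-flip permutation, adjusted p = 0.0162). That small difference was absent with a minimum of 20 counts (0.0742 points, permutation, adjusted p = 0.905) and did not pass the threshold against low-count sites of 3 to 9 counts (-0.250 points, permutation, adjusted p = 0.448).

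**Figure D5:**
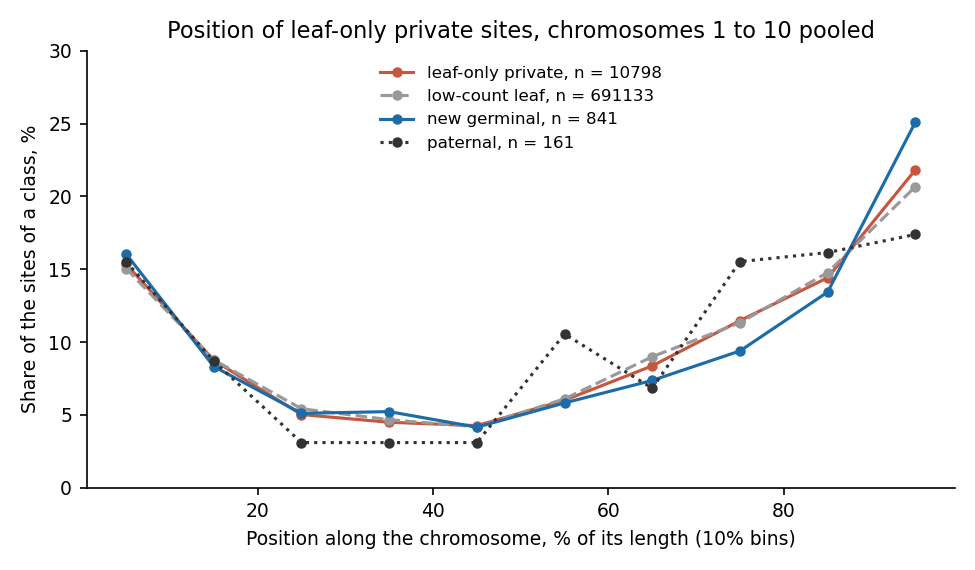
Share of sites in bins of 10% of chromosome length, for leaf-only, new germinal, paternal and low-count leaf sites. Each of the 4 classes has its highest share in the last bin, and leaf-only sites have 21.8% in the last bin against 25.1% of the new germinal, 17.4% of the paternal and 20.7% of the low-count leaf sites.

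Leaf-only sites were also examined for places hit in several plants. A new germinal insertion of another plant, as called in the authors' deposited table, lay within 1 kb of 313 of the 10798 leaf-only sites on chromosomes (2.90%), against 2.59% of the low-count leaf sites. Of all sites with the 8-bp spacing, 3.8% lay as near to a new germinal site of that spacing, of any plant. Averaged over plants the share was 3.81% of leaf-only sites and 2.64% of low-count sites, a difference of 1.16 ± 5.65 points (SD, n = 30), positive in 16 plants and negative in 14 (sign-flip permutation, p = 0.259). In plant 9 of NE73 the share was 33.3% of 6 sites, and without that plant the difference was 0.160 points (permutation p = 0.519).

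The share of leaf-only sites near a leaf-only site of another plant was a little above that of low-count leaf sites. Of the leaf-only sites, 2954 (27.3%) had a leaf-only site of another plant within 1 kb, against 24% of the low-count sites, a share that was higher for the leaf-only sites in 27 of 30 plants. These shares are a description, since leaf-only sites of a plant also serve as neighbours of the others. Only leaf-only sites next to each other along a chromosome were counted as pairs here. Such pairs within 1 kb numbered 1564 between plants and 204 within a plant. Within 10 bp they numbered 98 between plants and 106 within a plant. Pairs of low-count leaf sites were not counted, so the numbers of pairs are a description. When sites within 10 bp of a site with at least their counts in the same leaf were left out, 10590 remained.

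The closest pairs of different plants lay 1 bp apart, and there were 15 of them. The 3 with the highest summed counts are given. On chromosome 10, chr10:115482817-115482825 had 16 counts in plant 4 of NE72 and chr10:115482818-115482826 had 87 in plant 2 of NE74. On chromosome 8, chr8:17134087-17134095 had 51 counts in plant 3 of NE74 and chr8:17134088-17134096 had 11 in plant 3 of NE72. Farther out on that chromosome, chr8:3199302-3199310 had 38 counts in plant 5 of NE72 and chr8:3199303-3199311 had 19 in plant 7 of NE71. Each of these pairs joined plants of different families.

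In windows of 10 kb, the 8345 windows with a leaf-only site had sites of 1 plant in 6590 cases, 2 plants in 1406, 3 in 286, 4 in 52, 5 in 10 and 6 in 1. The last window, chr10:148950001-148960000, held 7 leaf-only sites from 6 plants of 2 families, and 1 new germinal insertion of the authors' deposited table. Windows were not counted in this way for low-count leaf sites. The numbers are thus a description and do not set leaf-only sites apart from other sites.

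Nearness to the elements that a plant carried was tested against the sites of the same father that it did not inherit. Between 1 kb and 5 Mb there were on average 2.48 leaf-only sites per carried paternal site and 2.25 per paternal site not carried, a difference of 0.236 ± 0.675 (SD, n = 30), positive in 20 plants and negative in 10 (sign-flip permutation, p = 0.0660). This did not pass the threshold, and within families the mean difference was 0.468 in NE72, 0.352 in NE74, 0.00140 in NE71 and 0.137 in NE73.

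The few counts of leaf-only sites in other leaves were set against relatedness, within the 0 to 2 counts that the rule allows. Per 1000 sites and per 1000000 counts of the other libraries, there were on average 81.8 ± 38.8 counts in leaves of the same family and 77.3 ± 21.4 in leaves of other families (SD, n = 30 plants), the first being higher in 13 of 30 plants. In NE72 the values were 102 ± 7.02 in the same family and 61.0 ± 17.3 in other families (SD, n = 7), higher in the same family in 7 of 7 plants, against 2 of 8 in NE71, 3 of 7 in NE73 and 1 of 8 in NE74. Counts in other leaves summed to 2.28% of the own leaf's counts over the leaf-only sites, against 0.360% over the 817 new germinal sites called for a single plant in the authors' deposited table. These shares are not alike. Leaf-only sites had a median of 16 counts in their own leaf and at most 2 in any other by the rule, while the new germinal sites had far more counts and no such limit. Those 817 sites had a median of 1683 counts in their own leaf. Of them, 173 (21.2%) had more than 2 counts in another leaf and 152 had counts in a father library. Strong sites called for a single plant can thus exceed these limits of the rule. How many strong leaf-only sites were left out in this way was not tested.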

How the data were processed

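Raw counts of 1091553 sites in 64 libraries were taken as the authors deposited them. Its 64 columns all matched a library by its title, and 0 columns were left unmapped. A second deposited file lists 1058 transmitted insertions, which per the file headers are called 0 or 1 in plants, fathers and the inactive parent line. Reads were aligned with Bowtie2, per the submitters' processing notes. The genome build, the counting program, the criteria of the list and any use of molecular identifiers are not given in the sources used here. Site names were used as deposited, with the lower coordinate as the start. Sites whose name gave a position in scientific notation were read as whole positions. Without a genome of that build, no sequences or gene names are given.

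CPM is the deposited count divided by the library total, times 1000000. Position differences between classes of site, and differences in nearness to listed sites, were tested over the 30 plants by two-sided permutation of signs, called sign-flip permutation (100000 resamples, smallest p 1e-05), within families by the exact form. The 4 families were compared by the F statistic with permuted labels, and each pair by exact permutation. The 3 relations were tested by permutation over all 30 plants, without regard to family. Benjamini-Hochberg adjustment covered the 3 position tests, the 3 relations and the 6 pairs of families. Python 3.11.15, NumPy 2.4.6, SciPy 1.17.1 and pandas 2.3.3 were used, and the procedures were tested on simulated data. The plant was the replicate block, since leaf and endosperm are stated to be from the same kernel; the deviations of leaf-only and endosperm-only numbers from their family means correlated at 0.0794 across plants. The labels gave no sequencing batch. Nothing says that the plants were processed as separate preparations, so p-values measure the spread between these libraries.

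The members and classes of site were chosen with earlier results of these data known. The sites named were the 10 of highest level, the highest of each family and the 3 closest pairs of different plants; ties among these pairs were broken by summed counts, a choice made after the values were seen. Alternatives were minimums of 5 and 20 counts, a common CPM minimum, 0 counts in other leaves, and 0 to 2 counts in other endosperm and father libraries. Further ones left out sites within 10 bp of a site of at least their counts, or left out plants and families. The rest were no replicate block, other distances and another range of low-count sites.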

Additional observations from a re-analysis of the deposited data

Results flagged for a closer look

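In 24 sets of plants of a family, the highest or lowest plant was compared with its siblings by Dixon's criterion. It flagged 7 plants. Chance would flag about 1 in 20 sets, or 1.2 of 24, for independent sets of normal values. Levels and endosperm-only numbers follow from counts that chose the sites, and small counts are not normal. The flags are thus a description, and their number is not a test against chance. Plant 8 of NE72, with a leaf of 25037 counts, had a median leaf-only level of 10.7%, with the nearest sibling at 1.03%. Its 10-count minimum alone was worth 9.71% of a paternal site. Plant 8 of NE73 had a highest leaf-only level of 55.4%, with the nearest sibling at 26.4%. Plant 8 of NE71 had leaf-only sites at a median of 18.9% from the nearer chromosome end, with the nearest sibling at 15.2%. In plant 9 of NE73, 33.3% of 6 leaf-only sites lay within 1 kb of a new germinal insertion of another plant in the authors' deposited table, with the nearest sibling at 5.59%.

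The other 3 concerned endosperm-only sites, of which plant 7 of NE74 had 14 with the nearest sibling at 5, plant 2 of NE72 had 6 with the nearest sibling at 2, and plant 2 of NE73 had 1 with all siblings at 0. Among comparisons between families, the distance from the chromosome end relative to paternal sites differed (F = 4.54, permutation, adjusted p = 0.0271). Siblings, which share the paternal sites of 1 father, were taken as replicates there. The leaf-only minus endosperm-only number had F = 8.52 between families, given as a description since the counts of both tissues chose the sites. The causes were not tested.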

How the results depend on the processing

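Of 165 recomputed values, 133 counted as unchanged. For tested results, and for the untested contrast of leaf-only with endosperm-only numbers, this means the same direction and side of the threshold. For the number of sites it means a change within a set ratio. For the median level it means a change smaller than its SD between plants. The number of leaf-only sites, 10801, was 27910 with a minimum of 5 counts, 4131 with 20, 161 at the common CPM minimum, 6204 without NE72 and 6980 without NE74. The median level over plants, 0.901%, was 0.435% with a minimum of 5, 1.73% with 20 and 9.58% at the common CPM minimum. The difference between leaf-only and endosperm-only numbers, 358 per plant, was 920.7 with a minimum of 5, 136.9 with 20, 4.70 at the common CPM minimum and 22.3 at matched depth. The difference in distance from the chromosome end lost its call against new germinal sites at the common CPM minimum (1.26, permutation p = 0.508), without NE71 (1.96, p = 0.0572) and without NE73 (1.58, p = 0.0680), and against paternal sites without NE73 (-4.68, p = 0.0599). Against low-count sites it turned to 0.0742 with a minimum of 20 (permutation p = 0.905) and lost its call at the common CPM minimum (-1.52, p = 0.502), without NE72 (-0.580, p = 0.0515), without NE73 (-0.558, p = 0.0726) and against sites of 3 to 9 counts (-0.250, p = 0.448).

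The share near a new germinal insertion of another plant differed by 0.709 points with a minimum of 5 (permutation p = 0.00095) and by -0.308 with 20 (p = 0.447). The difference between carried and other paternal sites passed the threshold with a minimum of 20 (0.124, permutation p = 0.0138) and without NE71 (0.321, p = 0.0203), and turned to -0.0104 at the common CPM minimum (permutation p = 0.308). Leaving out plant 7 of NE74 or plant 2 of NE71 gave 0.219 to 0.266 for it, the higher passing the threshold (without plant 2 of NE71, permutation p = 0.0394). The relation with the number of paternal sites lost its call with a minimum of 20 (0.352, permutation p = 0.0561), with 0 to 2 endosperm counts (0.358, p = 0.0515), at the 4% level (0.210, p = 0.274) and without NE71 (0.215, p = 0.337), NE72 (0.359, p = 0.0935) or NE73 (0.404, p = 0.0557). It turned to -0.337 at the common CPM minimum (permutation p = 0.208), and leaving out either plant gave 0.334 to 0.357, neither past the threshold. The relations with depth (0.0567, permutation p = 0.767) and with new germinal sites (0.0760, permutation p = 0.767) lost their calls at the common CPM minimum. At the 4% level they were 0.646 and 0.733 and kept their calls. Without the replicate block the difference between leaf-only and endosperm-only numbers was also 358, and the pairing changed no call of the position and nearness tests. The 4% level and leaving out plant 9 of NE73 were chosen after seeing the data. Apart from the settings that hold fewer sites or plants, the cause of these changes was not tested. Depth limits the lowest level counted, from 0.273% to 9.71% of a paternal site, and the weight of absence from the endosperm.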
